A study of Mus musculus with 4 samples.

Results

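The cytosolic ribosomal protein genes encode the protein part of the ribosome, the particle that translates mRNA. They were taken by gene name from a table of 34745 mouse genes: names that start with Rpl or Rps and a digit, together with Rplp0 to Rplp2 and Rpsa, without names marked as pseudogenes (-ps) and without the Rps6k kinases. This gave 88 genes. Of these, 77 are the standard ribosomal proteins, 31 of the small (40S) and 46 of the large (60S) subunit, and 11 are other names that the pattern takes in, which are paralogues, retrogenes and 1 binding protein. By their labels all cells were CD4+ T cells from the spleens of C57BL/6 mice with a wild type genotype, although the library labelled naive also held high levels of B cell, macrophage and neutrophil markers, as given with the depths. Each group was 1 library. Th17 and Treg cells had spent 3 days in differentiation conditions whose cytokines the sources do not name. Th0 cells had received αCD3/CD28 stimulation for 3 days. The naive library is labelled as spleen CD4+ T cells without culture.

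The ribosome is built in the nucleolus, where ribosomal RNA is transcribed, modified and assembled with imported ribosomal proteins. Each subunit takes a single copy of most of these proteins, while the acidic proteins Rplp1 and Rplp2 form the stalk of the large subunit on the base laid by Rplp0. Most ribosomal protein mRNAs begin with a terminal oligopyrimidine (TOP) tract, a C followed by a run of pyrimidines, through which the growth kinase mTOR controls their translation. T cells that are activated through the T cell receptor are known to grow and to make ribosomes before they divide. Ribosomal protein genes are also known for leaving many processed copies in mammalian genomes, some of them nearly identical to the gene.

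The TOP tract is shown here because it is the sequence feature that these genes are known to share. RefSeq promoter windows (GRCm38.p6, 250 bases before to 50 bases from the annotated start) were found by symbol for 57 of the 77 standard genes. The 30 bases around the annotated start, of which the last 15 begin at it, are given in the direction of transcription for 5 genes whose start lies in a pyrimidine run, with the run in capitals, and for 2 highly expressed genes whose annotated start does not.
Rps6 (chr4:86857353-86857382, minus strand): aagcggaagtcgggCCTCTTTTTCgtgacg
Rps9 (chr7:3704026-3704055, plus strand): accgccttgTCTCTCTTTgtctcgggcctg
Rplp2 (chr7:141447636-141447665, plus strand): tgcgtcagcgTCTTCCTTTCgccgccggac
Rpl28 (chr7:4792950-4792979, plus strand): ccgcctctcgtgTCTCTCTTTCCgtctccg
Rpl7a (chr2:26910792-26910821, plus strand): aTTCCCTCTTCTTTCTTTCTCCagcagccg
Rpl4 (chr9:64173372-64173401, plus strand): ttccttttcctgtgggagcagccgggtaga
Rplp0 (chr5:115559452-115559481, plus strand): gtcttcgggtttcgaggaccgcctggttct

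A pyrimidine run of at least 8 bases held the annotated start in 17 of the 57 standard genes (29.8%), against 1223 of 26958 other genes (4.54%). With a minimum of 5 bases the counts were 20 of 57 (35.1%), against 3170 of 26958 (11.8%). In the whole window of 300 bases, read on both strands, CCGGAAG, the core bound by ETS-family factors, was found in 24 of 57 standard genes (42.1%), against 2657 of 26958 other genes (9.86%). AAGATGGC, a core bound by the factor Yy1, was found in 5 of 57 (8.77%), against 856 of 26958 (3.18%), and TATAAA in 6 of 57 (10.5%), against 4227 of 26958 (15.7%). These are matches of letters, and a gene without a match may have its start annotated a few bases away.

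The libraries held 12414372 counts in Th17, 10256627 in Treg, 10272122 in Th0 and 11901949 in naive cells. Counts were scaled to CPM, the usual per-library unit of relative abundance, with TMM factors, which correct the library totals for composition. The lineage genes fitted the culture labels in part: Il17a stood at 90.9 CPM in Th17, 14.7 in Treg, 0 in Th0 and 0.244 in naive cells, while Foxp3, the defining factor of Treg cells, stood at 11.3 CPM in Th17, 51.5 in Treg, 1.37 in Th0 and 129 in naive cells, so that its highest level was in the naive library. The 7 T cell markers summed to 3010 CPM in Th17, 3270 in Treg, 3520 in Th0 and 2950 in naive cells. Markers of other cells were high in the naive library: 8 B cell markers summed to 198 CPM in Th17, 101 in Treg, 440 in Th0 and 3660 in naive cells, and 8 macrophage and monocyte markers to 31.7, 44.8, 31.2 and 3810 CPM in the same libraries. Neutrophil markers (6 genes) stood at 18.6 to 469 CPM each in the naive library and summed to 4.42 CPM or less in each culture, where 2, 2 and 1 of them had no count in Th17, Treg and Th0. Every comparison with the naive library carries this difference in cells, and its part in the values of the ribosomal protein genes was not tested. In such bulk samples, a change in the mix of cells and a change of RNA per cell cannot be told apart.

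Ribosomal protein genes took 4.36% of all counts in Th17 cells (95% exact Clopper-Pearson interval 4.353% to 4.376%) and 4.42% in Treg cells (4.406% to 4.431%). They took 8.61% in Th0 cells (8.594% to 8.628%) and 3.2% in naive cells (3.195% to 3.215%). Th0 cells thus stood apart from the other 3 libraries, and the intervals, which cover counting error only, were far narrower than these gaps. For both subunits the share was highest in Th0 and lowest in naive cells. The 40S proteins took 1.85% in Th17, 1.85% in Treg, 3.83% in Th0 and 1.43% in naive cells, and the 60S proteins took 2.37%, 2.42%, 4.54% and 1.65%. The ratio of 60S to 40S counts was 1.28 in Th17, 1.31 in Treg, 1.19 in Th0 and 1.15 in naive cells. Their mitochondrial counterparts, the Mrpl and Mrps genes that serve the ribosome of mitochondria, took 0.249% in Th17, 0.253% in Treg, 0.26% in Th0 and 0.195% in naive cells, with Th0 close to the other cultures.

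**Figure D1:**
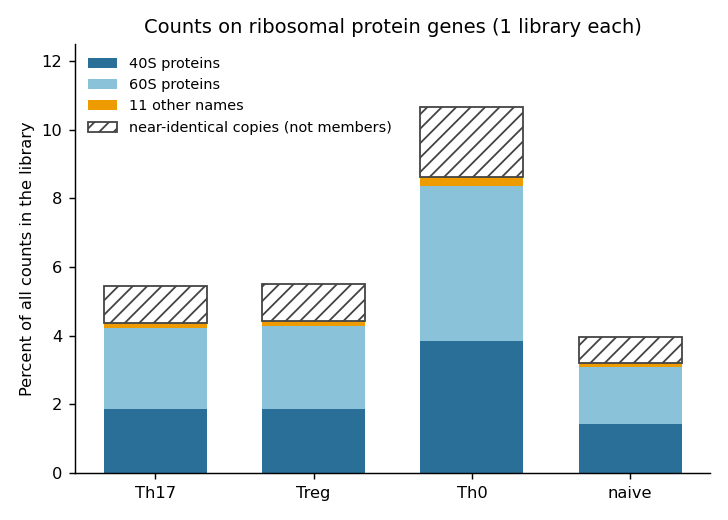
Percent of all counts in each of the 4 libraries (bars, 1 library each) on the 40S proteins, the 60S proteins and the 11 other names, with counts on near-identical copies outside the gene set hatched on top. Th0 reached 8.61% without the copies, against 3.2% in naive cells, and Th17 and Treg stood at 4.36% and 4.42%.

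The question asked of each pair of libraries was how many of these genes differed at least 2-fold. The log2 ratio was taken on CPM + 1, over genes with at least 10 counts in 1 of the 2 libraries, and a gene was called when it passed 2-fold and when the 95% exact interval of the count ratio excluded 1. With 1 library per group, this is a rule of size with counting error and not a test between conditions, so no p-value is given, and each difference has no replicate check.

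Between Th0 and naive cells nearly the whole set was higher in Th0. Of the 86 genes with enough counts, 70 were called higher, where 18.5% of all 13995 genes were, and 2 were called lower, where 27.2% of all genes were. The median log2 ratio was 1.64, against -0.13 over all tested genes. The subunits moved alike, with 28 of 31 40S genes called higher (median 1.64) and 38 of 46 60S genes (median 1.65). When library totals replaced the TMM factors, the median of all genes shifted by -0.25 to -0.38. The calls were then 62 higher, where 13.5% of all genes were, and 3 lower, where 32% were. The members' median was 1.36. The distance of the members' median from that of all genes was then 1.74, against 1.77 with TMM factors. Most mRNAs of the set are short, and among other genes the ratio was lower in classes of longer principal transcripts: the median log2 ratio for Th0 over naive was -0.01 under 1000 nt, -0.05 from 1000 to under 2000 nt, -0.19 from 2000 to under 4000 nt and -0.21 from 4000 nt on, with 22.8%, 20.3%, 17.4% and 15.3% of these genes called higher. The shortest class stood at -0.15 in Th17 and -0.14 in Treg over Th0, while the longer classes ran from 0.11 to 0.15 in Th17 and from 0.08 to 0.14 in Treg. The part of length in the values of the ribosomal protein genes was not tested.

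**Figure D2:**
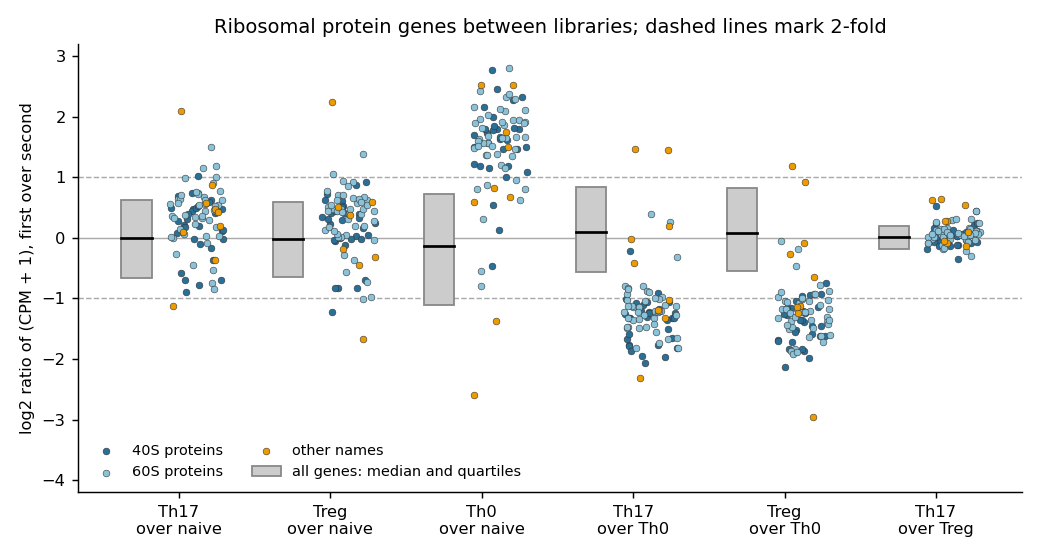
The log2 ratio of CPM + 1 (vertical axis) of each tested gene of the set in 6 comparisons of single libraries (horizontal axis), coloured by subunit, beside the median and quartiles of all tested genes (grey box). The points lie mostly above 1 for Th0 over naive (70 of 86 called higher), mostly below -1 for Th17 and Treg over Th0 (67 of 86 called lower in each), and around 0 for Th17 over Treg.

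Rpl39, a small protein at the tunnel through which the new chain leaves the large subunit, had 144 CPM in Th17, 139 in Treg, 511 in Th0 and 71.9 in naive cells, a log2 ratio of 2.81 for Th0 over naive (2.67 with the counts of its copy added). Rps10, of the small subunit, had 25.7 CPM in Th17, 24.2 in Treg, 89.3 in Th0 and 12.2 in naive cells (2.77 for Th0 over naive). These were the highest ratios of the standard genes, and both genes were lowest in naive and highest in Th0. Rps19, which in humans is a gene of the inherited Diamond-Blackfan anaemia, had 375 CPM in Th17, 400 in Treg, 1320 in Th0 and 241 in naive cells, a log2 ratio of 2.45. Rpl32 of the large subunit had 1290 CPM in Th17, 1170 in Treg, 3030 in Th0 and 563 in naive cells (2.42). Rpl24, which takes part in joining the subunits, had 718 CPM in Th17, 664 in Treg, 1320 in Th0 and 254 in naive cells (2.37). Rpl24 and Rpl32 differed from most of the set in that Th17 and Treg cells also passed 2-fold over naive. Rps20 had 593 CPM in Th17, 645 in Treg, 2290 in Th0 and 454 in naive cells (2.33). Like most of the set, it did not pass 2-fold over naive in Th17 or Treg cells. Its log2 ratio for Th17 over naive was 0.39, where the median of the set was 0.38.

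The standard genes at the other end of this comparison had few counts. Rpl28 had 133 counts in Th17, 80 in Treg, 73 in Th0 and 186 in naive cells, a log2 ratio of -0.79 for Th0 over naive. Rpl27 had 123, 92, 104 and 217 counts (-0.54), and Rps29 had 16, 6, 14 and 32 counts (-0.47), each in the order Th17, Treg, Th0 and naive. None of these 3 genes was called, and Rpl28, Rpl27 and Rps29 were the 3 standard genes highest in naive cells. Rps6 (0.13), the phosphorylated protein commonly used to read out mTOR activity, Rpl23a (0.32) and Rps13 (0.54) followed. Among the 56 standard genes with a mean of at least 100 CPM per kilobase of their principal transcript, 55 were called higher in Th0 and log2 ratios ran from 0.96 to 2.81. Among the 21 genes below that level, 11 were called higher and ratios ran from -0.79 to 2.77. The mean was taken over all libraries, Th0 included, so a gene could pass through its Th0 level alone. Rpl23 did so, with 79.4 in Th17, 74.9 in Treg, 213 in Th0 and 47.1 in naive cells. The split therefore favours genes high in Th0 and is no independent comparison of the calls.

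Th17 and Treg cells were lower than Th0 for most of the set. For Th17 over Th0, 67 of 86 genes were called lower, where 12.2% of all genes were, and 2 were called higher, where 20.4% of all genes were; the median log2 ratio was -1.23, against 0.10 over all genes. For Treg over Th0, 67 of 86 were again called lower, where 11.9% of all genes were, and 1 was called higher, where 20.2% were, with a median of -1.24 against 0.08. These comparisons share the Th0 library with each other and with Th0 over naive. The counts of called genes changed with the scaling. Library totals shifted the median of all genes by 0.27 to 0.36 for Th17 and by 0.31 to 0.39 for Treg. In Th17 36 genes were then called lower, where 6.92% of all genes were, with a median of -0.93. In Treg 36 were called lower, where 6.17% were, with a median of -0.90. The distance of the members' median from that of all genes was -1.29 in each comparison. With TMM factors it was -1.33 in Th17 and -1.32 in Treg. Rps2, which lies near the mRNA entry of the small subunit, had 565 CPM in Th17, 502 in Treg, 2200 in Th0 and 491 in naive cells, with log2 ratios over Th0 of -1.96 in Th17 and -2.13 in Treg. Rps21 had 158 CPM in Th17 and 578 in Th0 (-1.87), and Rps18 had 172 CPM in Treg and 629 in Th0 (-1.87). No standard gene was called higher in Th17 or Treg than in Th0; the genes called higher were Rpl7l1 in both comparisons and Rps4l in Th17, described with the paralogues.

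Against naive cells, Th17 and Treg cells differed little. For Th17 over naive, 6 of 86 genes were called higher and 1 lower, where 15.6% and 17.4% of all genes were, and the median log2 ratio was 0.38, against 0.00 over all genes. Of the 86 genes, 68 had a ratio above 0, where 50% of all genes did. For Treg over naive, 3 of 85 genes were called higher and 3 lower, where 14.9% and 16.8% of all genes were, with a median of 0.38 against -0.02, and 64 had a ratio above 0, where 49.1% of all genes did. The genes called higher in Th17 over naive were Rpl24 (2.83-fold, interval 2.72 to 2.95), and, with their log2 ratios, Rpl32 (1.19), Rpl12 (1.16, and 0.09 with the counts of its copy, which ends the call), Rps10 (1.02), Rpl22 (1.01) and the paralogue Rps27l (2.10). In Treg over naive they were Rpl24 (1.38), Rpl32 (1.05) and Rps27l (2.25). The genes called lower all had few counts: Rps4l in both comparisons, and Rpl27 (-1.01) and Rps29 (-1.23) in Treg over naive. With the counts of its copy added, Rpl27 was at 0.46 and not called.

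Between Th17 and Treg cells none of 86 genes was called in either direction, where 1.94% of all 13346 genes were called higher in Th17 and 1.21% lower. The standard genes ran from -0.35 for Rps21, with 158 CPM in Th17 and 201 in Treg, to 0.53 for Rps29, which had 16 and 6 counts. Setting the size rule at 1.5-fold gave 1 call, higher in Th17, and the share of all genes under that rule is not given here. The highest ratio of the whole set was 0.64, for the paralogue Rpl22l1, with 566 counts in Th17 and 305 in Treg. Among the 56 standard genes with a mean of at least 100 CPM per kilobase, ratios ran from -0.35 to 0.31. The upper end was Rpl22, with 275 CPM in Th17 and 222 in Treg.

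Over all 4 libraries, 73 of the 77 standard genes were highest in Th0 cells, 3 in naive and 1 in Th17, and 60 were lowest in naive, 12 in Treg and 5 in Th17. The order Th0, Th17, Treg, naive from high to low was held by 38 genes and the order Th0, Treg, Th17, naive by 21. The remaining 18 genes showed 6 other orders. The make-up of the pool of counts on all 88 genes was described by each gene's share of it. Among standard genes with at least 100 counts in both libraries, a gene's share of the pool stayed within 2-fold in 67 of 73 genes for Th0 over naive, in 67 of 69 for Th17 over naive and in 67 of 67 for Treg over naive. For Th17 over Treg it stayed within 2-fold in 67 of 67 and within 0.5 on the log2 scale in 67 of 67, from -0.37 to 0.32. The largest departures for Th0 over naive were Rps10 (1.17) and Rpl39 (1.13) upwards and Rpl27 (-2.27) and Rps6 (-1.56) downwards, on the log2 scale of pool shares by the gene's own row. Rpl27 held 1.3% of its counts summed with its copy in Th0 and 7.02% in naive cells, and its Th0 over naive ratio was 1.86 with the copy added, against -0.54 by its own counts.

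Levels between genes were compared as CPM per kilobase of the GENCODE vM21 principal transcript. The median over the standard genes was 401 in Th17, 397 in Treg, 1040 in Th0 and 283 in naive cells, against 10.8, 11.2, 12.6 and 10.4 over all genes with at least 10 counts in those libraries. The number of standard genes among the 100 genes of highest level was 33 in Th17, 34 in Treg, 44 in Th0 and 25 in naive cells. The range within the set was wide. Rps15 of the small subunit stood highest on average, with 2750 CPM per kilobase in Th17, 2630 in Treg, 6370 in Th0 and 1970 in naive cells. The stalk protein Rplp1 followed with 2020 in Th17, 1950 in Treg, 6430 in Th0 and 2000 in naive cells. At the low end stood Rps29 (3.14, 1.39, 4.1 and 6.68), Rps23 (1.8, 1.92, 10.8 and 4.26) and Rpl23a (8.07, 5.48, 5.71 and 4.22), in the order Th17, Treg, Th0 and naive. These levels rest on the counts of the gene's own row, and the rows of its copies come next.

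Counts were split between many genes and near-identical copies. A copy was a transcript of another locus that aligned on the same strand with at least 95% identity over at least 150 nt and 50% of its length. Among GENCODE transcripts 75 of the 77 standard genes had such a copy, 33 had one with a row in the table, and for 12 the copies in the table held more counts than the gene in every library. Coding stretches of 3 genes and their copies show how little there is to tell the reads apart. Rpl5 and Gm15500 are the same over all 894 coding bases, and Rps27 and its retrogene Rps27rt over all 255, so their first 60 coding bases are printed once each; for Rplp0 a stretch of 60 coding bases is given with the differing bases in capitals.
Rpl5 (chr5:107900502-107909005, plus strand) and Gm15500 (chr7:114705217-114706235, minus strand): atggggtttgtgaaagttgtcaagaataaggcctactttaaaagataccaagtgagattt
Rps27 (chr3:90212522-90213651, minus strand) and Rps27rt (chr9:114982371-114982740, minus strand): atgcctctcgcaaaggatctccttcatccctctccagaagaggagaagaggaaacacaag
Rplp0, coding bases 388 to 447 (chr5:115559467-115563727, plus strand): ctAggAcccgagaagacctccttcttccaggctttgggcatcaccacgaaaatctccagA
Gm8730 (chr8:102864779-102865853, minus strand): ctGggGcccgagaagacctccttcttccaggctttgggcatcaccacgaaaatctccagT

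Rpl5, which carries 5S ribosomal RNA into the large subunit, had 970 counts in Th17, 812 in Treg, 1328 in Th0 and 660 in naive cells, while Gm15500 had 32655, 26738, 43946 and 18937. The gene itself thus held 2.88% of the counts of the pair in Th17, 2.95% in Treg, 2.93% in Th0 and 3.37% in naive cells. Rps27 had 94 counts in Th17, 73 in Treg, 207 in Th0 and 138 in naive cells, and Rps27rt had 7643, 6706, 11684 and 9227. The retrogene thus held nearly all counts of that pair in each library. For Rplp0 and Gm8730, which differ at 12 of 954 coding bases, Rplp0 held 67.1% of the counts in Th17, 69.1% in Treg, 67% in Th0 and 69% in naive cells. The split between gene and copy was similar in the 4 libraries for these pairs. It was less even for Rpl12, whose copy Gm10275 is the same over all 498 coding bases: Rpl12 held 7.31% in Th17, 6.05% in Treg, 4.86% in Th0 and 3.45% in naive cells.

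**Figure D3:**
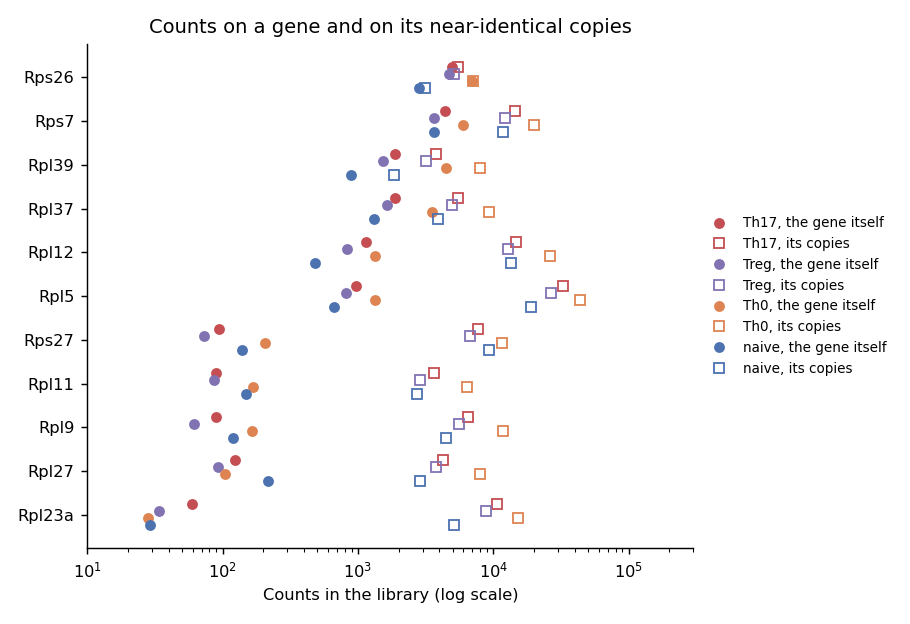
Counts (log scale) on 11 of the 12 standard genes whose near-identical copies held more counts than the gene in every library, with the gene as filled circles and the sum of its copies as open squares, coloured by library. Rpl5 had 1328 counts in Th0 cells and its copies 43946; in both symbols Th0 lies to the right of the other libraries for most genes.

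Summing each gene with its copies changed the account of single genes more than that of the set. The ribosomal protein genes and their copies together took 5.44% of all counts in Th17, 5.52% in Treg, 10.6% in Th0 and 3.97% in naive cells. For Th0 over naive, 73 genes were then called higher and 2 lower, with a median of 1.66. Rpl27, at -0.54 by its own counts, was at 1.86 with its copy in the table and was called higher, as were Rpl23a (2.06, against 0.32 by its own counts), Rpl9 (1.87, against 0.88) and Rpl11 (1.68, against 0.62). Rps27 lost its call for Th0 over naive, with 0.83 in place of 1.01. For Rpl28, Rps6, Rps13 and Rps29, no copy with counts was in the table, so their low counts were left as they were. GENCODE holds copies of them that have no row: 4 for Rpl28, 11 for Rps6, 5 for Rps13 and 6 for Rps29. The part of these copies in the low counts was not tested.

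Among the 11 other names, some followed the standard genes and others did not. Rpl22l1, a paralogue of Rpl22 that is known to be able to take its place in the large subunit, had 43.4 CPM in Th17, 27.5 in Treg, 221 in Th0 and 37.7 in naive cells. Its log2 ratio was 2.52 in Th0 over naive, while Th17 stood at -2.32 and Treg at -2.96 over Th0, all called. Rpl22 itself had 275 CPM in Th17, 222 in Treg, 688 in Th0 and 136 in naive cells. Per kilobase, Rpl22l1 made up 11.9% of the pair in Th17, 9.63% in Treg, 21.6% in Th0 and 19.2% in naive cells, so that its part was about equal in Th0 and naive cells and lower in Th17 and Treg. A copy of Rpl22l1 also held counts, and the gene held 79.4% of their sum in Th17, 76.2% in Treg, 72.7% in Th0 and 80.1% in naive cells.

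Rps27l, a paralogue of Rps27 known as a target of the tumour suppressor Trp53, had 79.2 CPM in Th17, 87.7 in Treg, 106 in Th0 and 17.7 in naive cells. It was high in all 3 cultures, with log2 ratios over naive of 2.10 in Th17, 2.25 in Treg and 2.52 in Th0, each called, and it was not called in Th17 over Th0 (-0.42) or Treg over Th0 (-0.27). Rpl7l1, a relative of Rpl7 known from the assembly of the large subunit, went the other way: it had 78.8 CPM in Th17, 64.8 in Treg, 28.1 in Th0 and 74.2 in naive cells. It was called lower in Th0 over naive (-1.37) and higher in Th17 over Th0 (1.45) and Treg over Th0 (1.18), while Rpl7 was called higher in Th0. Rps4l, a relative of the X-linked Rps4x, had 23 counts in Th17, 10 in Treg, 0 in Th0 and 62 in naive cells. It was called lower in each culture than in naive cells, and its 0 counts in Th0 allow up to 0.343 CPM (3 counts), against 5.05 CPM in naive cells.

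Rpl36al, which encodes nearly the same protein as Rpl36a, had 79.1 CPM in Th17, 73.8 in Treg, 161 in Th0 and 56.4 in naive cells, and made up 82.1% of the pair per kilobase in Th17, 82.1% in Treg, 83.7% in Th0 and 83.3% in naive cells. It followed the set, at 2.86-fold for Th0 over naive (interval 2.61 to 3.14). The retrogene Rpl37rt, whose coding sequence differs from that of Rpl37 at 1 of 294 bases, had 422 CPM in Th17, 449 in Treg, 1060 in Th0 and 316 in naive cells (1.75 for Th0 over naive, called higher). Rps27rt had 586 CPM in Th17, 605 in Treg, 1330 in Th0 and 751 in naive cells. Its ratio of 0.83 for Th0 over naive was not called, and it stood at -0.36 in Th17 and -0.31 in Treg over naive, where the medians of the set were 0.38. Rps19bp1, a nucleolar protein that binds Rps19 and is no part of the ribosome, had 18.5 CPM in Th17, 15.1 in Treg, 16 in Th0 and 9.69 in naive cells and was not called in any comparison. Rpl39l, known from testis, had 16 counts in Th17, 5 in Treg, 11 in Th0 and 6 in naive cells, and Rpl3l of striated muscle and Rpl10l of testis had 0 counts in every library.

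**Figure D4:**
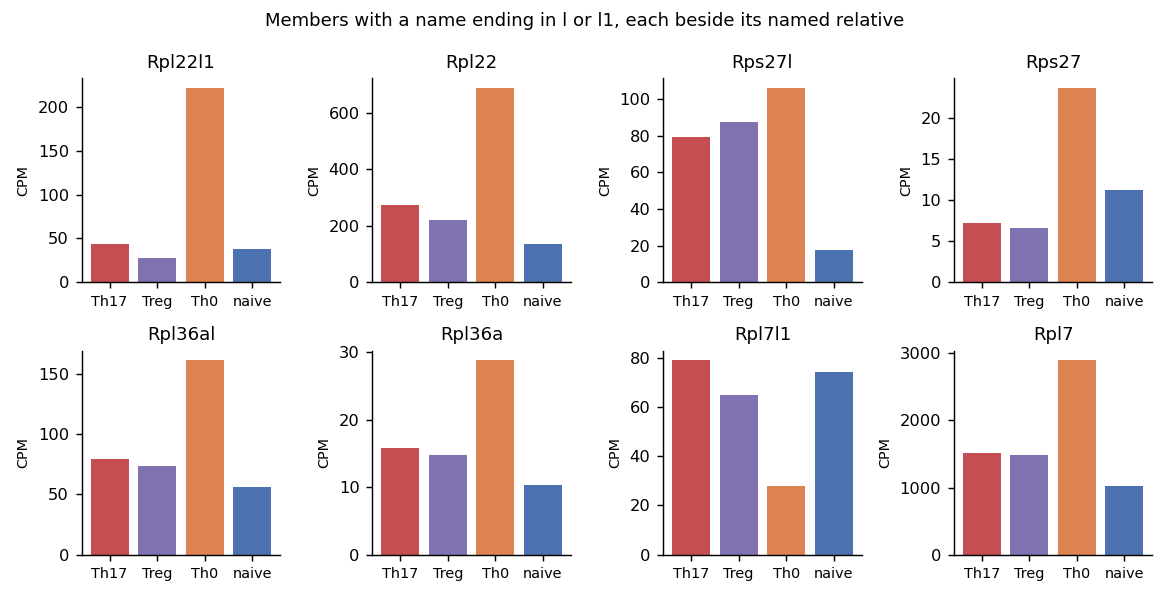
CPM in the 4 libraries (1 library per bar, each panel with its own scale from 0) of 4 genes of the set and, to the right of each, its named relative. The Rps27 panel shows the gene's own row only, while its retrogene Rps27rt, which is not drawn, held nearly all counts of that pair. Rpl22l1 reached 221 CPM in Th0 and 27.5 in Treg, Rps27l was lowest in naive cells with 17.7, and Rpl7l1 was lowest in Th0 with 28.1 while Rpl7 was highest there.

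Other genes of the translation machinery gave the context of these values. Fau, which encodes a small subunit protein fused to a ubiquitin-like protein, had 605 CPM in Th17, 569 in Treg, 1050 in Th0 and 385 in naive cells, and was called higher in Th0 over naive (1.44). Of 18 elongation factors and other genes with TOP mRNAs, 16 were called higher in Th0 over naive and none lower. Of all genes, 18.5% were called higher and 27.2% lower. The median of the 18 genes was 1.63. Among them were Gas5 (2.74), a snoRNA host transcript, Npm1 (2.05), the nucleolar chaperone nucleophosmin, and Eef2 (1.66), the translocase of elongation, which had 8030 CPM in Th17, 11700 in Th0 and 3730 in naive cells. In Th17 over Th0 5 of these 18 were called lower, where 12.2% of all genes were. The median of the 18 was -0.79, closer to 0 than the -1.24 of the standard ribosomal proteins. In Treg over Th0 8 of the 18 were called lower, where 11.9% of all genes were. Their median was -0.89, against -1.28 for the standard ribosomal proteins. Translation initiation factors (54 tested) gave 16 called higher and 5 lower in Th0 over naive, with a median of 0.38. Mitochondrial ribosomal proteins gave 17 higher and 3 lower of 77, with a median of 0.44. These stand beside the 18.5% higher and 27.2% lower of all genes, whose median was -0.13.

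Genes that build ribosomes did not follow the ribosomal proteins. Of 40 ribosome biogenesis genes, 4 were called higher and 19 lower in Th0 over naive, where 18.5% and 27.2% of all genes were, with a median log2 ratio of -0.97. In Th17 over Th0, 21 were called higher and none lower (median 1.10), where 20.4% and 12.2% of all genes were, and in Treg over Th0 19 higher and none lower (median 0.92), where 20.2% and 11.9% were. Polr1b, a core subunit of RNA polymerase I, had 37.6 CPM in Th17, 2.63 in Th0 and 45.3 in naive cells, with -3.67 for Th0 over naive and 3.41 for Th17 over Th0. Bop1 and Grwd1, needed for large subunit assembly, and Rrp12, needed for export and maturation, were also lower in Th0 than in naive cells (-3.05, -2.80 and -2.73). The 4 called higher in Th0 over naive included Taf1d (1.99) and Polr1c (1.67), both of the RNA polymerase I machinery, and Ncl (1.02), which encodes nucleolin. Of 27 tested genes of growth signalling, 7 were called higher and 2 lower in Th0 over naive, where 18.5% and 27.2% of all genes were, with a median of 0.11. Those called higher were Eif4ebp1 (1.88), Ddit4 (1.51), Sesn3 (1.39), Eif4e (1.38), Tsc1 (1.30), Rictor (1.21) and Rheb (1.11), which include both activators and inhibitors of mTOR and of cap-dependent translation, and those called lower were Myc (-1.10) and Tsc2 (-1.11).

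**Figure D5:**
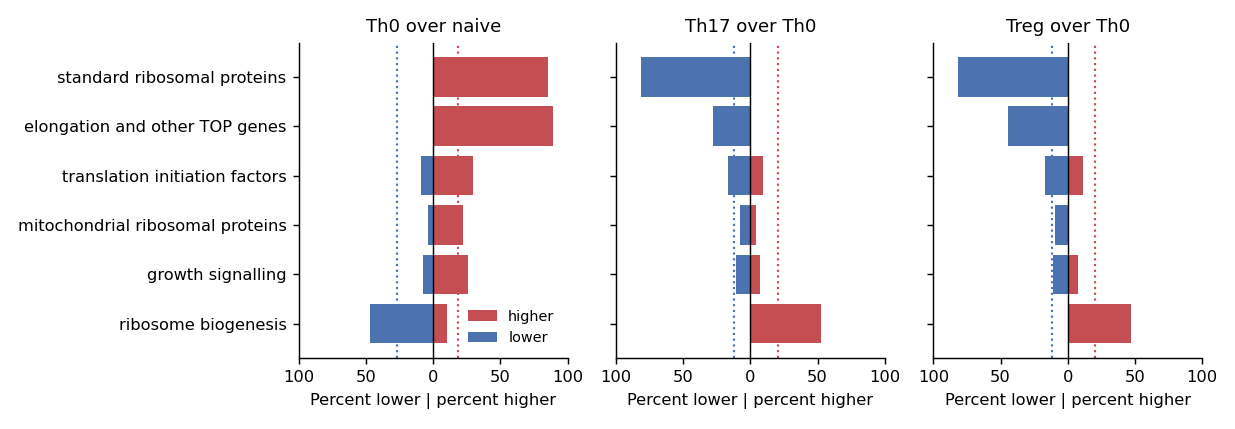
Percent of the tested genes of 6 gene lists (rows) called higher (red, right of 0) or lower (blue, left of 0) in Th0 over naive, Th17 over Th0 and Treg over Th0. Dotted lines mark the same percentages over all tested genes; in Th0 over naive 66 of 77 standard ribosomal proteins were called higher and none lower, and 4 of 40 ribosome biogenesis genes higher and 19 lower.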

How the data were processed

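RNA of 4 mouse libraries was sequenced on an Illumina HiSeq, per the labels' protocols. The submitters' processing notes name Bowtie2 and RSEM, with mm10 and GRCm38.p6 as builds, and give no versions. Strandedness is not given in the sources used here. The authors deposited whole-number counts per gene, with no normalization, and FPKM values, per the file headers. The deposited FPKM used the same gene length in all libraries (81 of 81 members with at least 50 counts, tolerance 0.1%), but for 67 of 86 members this length exceeded the longest GENCODE vM21 transcript, up to 14.8 times the principal one (Rpl9). Levels between genes were therefore taken per kilobase of the principal transcript (APPRIS, then transcript support level, then the shortest), not from FPKM as first planned.

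Counts were scaled with TMM (edgeR 4.0.16, R 4.3.3): 1.05 in Th17, 1.08 in Treg, 0.852 in Th0 and 1.03 in naive cells. One count was worth 0.0766, 0.0902, 0.114 and 0.0814 CPM in these libraries. The calling rule compares single libraries, with counting error only. It was run on simulated counts that held the same counting error and planted changes well past 2-fold. That run therefore cannot show how the rule does with variation between replicates or with ratios near 2-fold. The named genes were the 6 highest and 6 lowest log2 ratios among standard genes per comparison, the 6 highest and 6 lowest FPKM means, all other names with at least 10 counts, and up to 4 genes per other list; further genes with copies were chosen after their values were seen. The members and lists were chosen with earlier results of these data known. Copies were found with BLAST+ 2.17.0. Rack1 was not analysed here, and a few members are left out of the text. DESeq2 1.42.0 gave alternative size factors. Tables were handled with pandas 2.3.3, intervals with scipy 1.17.1 and plots with matplotlib 3.10.9, under Python 3.11.15.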

Additional observations from a re-analysis of the deposited data

How the results depend on the processing

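No paired analysis was possible because each group had 1 library, and for the same reason no replicate could be left out. Library totals gave 36 genes lower in Th17 over Th0 and 36 in Treg over Th0, where 6.92% and 6.17% of all genes were. The medians with library totals were 1.36 in Th0 over naive, 0.02 in Th17 over Treg, and -0.93 and -0.90 in Th17 and Treg over Th0. FPKM, which keep those totals, gave 1.36, 0.02, -0.91 and -0.88 in the same comparisons, with 33 lower in each comparison with Th0 and 0 lower in Th17 over naive. DESeq2 size factors gave -1.30 and -1.31 for Th17 and Treg over Th0, and upper quartile scaling -1.21 for Th17 over Th0. A pseudocount of 0.1 CPM gave 3 lower (Th17 over naive), 5 lower (Treg over naive) and 2 higher (Treg over Th0); 5 CPM gave 0 lower in both comparisons with naive, and 1 higher with a median of -1.19 for Th17 over Th0. A minimum of 50 counts gave 1 higher for Th17 over Th0. The 1.5-fold rule gave 23 higher and 7 lower (Th17 over naive), 21 and 9 (Treg over naive), 2 higher (Treg over Th0) and 1 higher (Th17 over Treg). Shares over all genes are not given here for FPKM, the pseudocounts, the minimum of 50 counts and the 1.5-fold rule. The counts of called genes under these settings therefore cannot be set against all genes.

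With standard proteins alone, 0 were lower in Th17 and Th0 over naive, and 0 higher in Th17 and Treg over Th0; the shares were 4.23% in Th17, 4.27% in Treg, 8.36% in Th0 and 3.07% in naive cells. With -ps rows added they were 4.62%, 4.69%, 9.13% and 3.36%, and with all near-identical copies, an alternative chosen after seeing the data, 5.44%, 5.52%, 10.6% and 3.97%. Standard proteins with a mean of at least 100 CPM per kilobase, also chosen after seeing the data, gave 3 higher in Th17 over naive, 0 lower in all 3 comparisons with naive, 0 higher in both with Th0, and medians of 1.69 (Th0 over naive), -1.27 (Th17 over Th0) and -1.29 (Treg over Th0). That mean included the Th0 library, so genes high in Th0 passed it more easily. The Treg over naive ratio of Rpl27 reversed to 0.46 with its -ps rows and with its copy. Of the values of named genes, 15 lost and 5 gained a call with library totals, and 18 lost and 2 gained one with FPKM; the cause was not tested. Counting intervals are widest for the genes with few counts, such as Rps29 with 6 to 32 counts per library, and no setting replaces replicate libraries.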
